A study of Mus musculus with 8 samples.

Results

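Chromatin accessibility was examined around 10 genes that encode basic leucine zipper transcription factors of the AP-1 and BACH families, Jun, Junb, Jund, Fos, Fosb, Fosl2, Batf, Batf3, Bach1 and Bach2. A peak was taken as a member when its nearest protein-coding gene, within 50 kb in mouse build mm10, was 1 of these 10. Of the 57199 peaks in the deposited table, 124 met this rule, of which 57 belonged to Bach2, 18 to Bach1, 13 to Fos, 10 to Jun, 8 to Fosb, 5 to Batf, 4 each to Batf3 and Fosl2, 3 to Junb and 2 to Jund. The measurement was ATAC-seq, in which a transposase cuts and tags open DNA. The cells were regulatory T (Treg) cells of the spleen. The Flcn KO group came from mixed bone marrow chimeras given Foxp3Cre Flcn fl/fl marrow, in which Cre is driven by the Foxp3 gene and removes the floxed Flcn gene in cells that express Foxp3. The WT group came from chimeras given wild-type marrow. Cells of both groups were CD45.2+, CD45.1-, CD4+ and Foxp3-YFP+, so that only the cells of the donor that carries CD45.2 entered a library, and both groups share the Foxp3-YFP reporter. The labels do not give the ages of the mice, the genotype of the CD45.1 marrow, or whether the WT cells carry Cre. Each group had 4 libraries, called biological replicates by the labels, and all p-values measure the spread between these libraries.

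JUN proteins pair with FOS or BATF proteins and bind AP-1 sites, and their activity follows signals from the T cell receptor and MAP kinases. BATF and JUN also bind together with the factors IRF4 and IRF8 in lymphocytes. BACH1 and BACH2 pair with small MAF proteins and repress genes through elements that contain an AP-1-like core, and BACH2 is known to restrain effector genes in T cells and to favour the formation of Treg cells.

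The starts of 4 of these genes are shown because their data differ in kind. The Jun start lay in the strongest of the peaks near these genes, and the Batf3 start lay in no peak. The Fos and Batf starts lay in weaker peaks than that of Jun, at percentiles 85.6 and 77.9 of all tested peaks in level. Each sequence is the strand of the gene, 5′ to 3′, from 250 bases before to 50 bases after the start in RefSeq (GRCm38.p6, the assembly behind mm10). Capitals mark a motif match.
Jun (chr4:95052173-95052472, minus strand): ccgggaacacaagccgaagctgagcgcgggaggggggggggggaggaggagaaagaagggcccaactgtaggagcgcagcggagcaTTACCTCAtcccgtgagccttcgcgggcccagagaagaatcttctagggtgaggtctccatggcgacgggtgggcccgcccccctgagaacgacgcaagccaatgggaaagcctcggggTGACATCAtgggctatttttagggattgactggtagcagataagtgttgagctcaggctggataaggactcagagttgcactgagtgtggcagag
Fos (chr12:85473640-85473939, plus strand): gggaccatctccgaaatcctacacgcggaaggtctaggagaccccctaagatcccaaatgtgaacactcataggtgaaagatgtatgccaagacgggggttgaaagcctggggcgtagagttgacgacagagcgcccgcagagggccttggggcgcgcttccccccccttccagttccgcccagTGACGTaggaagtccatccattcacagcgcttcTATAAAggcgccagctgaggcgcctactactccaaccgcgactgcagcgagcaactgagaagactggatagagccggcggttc
Batf (chr12:85686470-85686769, plus strand): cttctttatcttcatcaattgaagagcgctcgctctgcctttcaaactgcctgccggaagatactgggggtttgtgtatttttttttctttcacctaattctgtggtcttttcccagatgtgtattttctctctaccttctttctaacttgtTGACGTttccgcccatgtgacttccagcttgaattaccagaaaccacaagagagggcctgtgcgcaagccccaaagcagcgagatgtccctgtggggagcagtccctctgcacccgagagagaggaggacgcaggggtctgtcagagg
Batf3 (chr1:191098164-191098463, plus strand): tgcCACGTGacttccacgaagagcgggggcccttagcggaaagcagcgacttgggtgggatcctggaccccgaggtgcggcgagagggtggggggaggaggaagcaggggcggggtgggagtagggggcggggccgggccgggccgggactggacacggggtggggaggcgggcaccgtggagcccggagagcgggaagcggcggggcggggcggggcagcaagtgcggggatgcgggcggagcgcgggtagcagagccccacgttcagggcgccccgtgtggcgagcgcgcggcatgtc

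In the Jun sequence the capitals are TGACATCA, whose first base lies 45 bases before the start, and TTACCTCA, 164 bases before it; these are variant AP-1 sites. They were searched on both strands of 32851 RefSeq promoter windows of the same length, of which 3.62% held the first and 0.889% the second. The core TGACGT of the cAMP response element, found in 7.51% of windows, lies 66 bases before the start of Fos and 98 bases before that of Batf. The capitals TATAAA in Fos lie 33 bases before its start, and 13.6% of windows hold these letters; the window of Junb, not printed, also holds them. The E-box CACGTG, present in 7.15% of windows, lies 247 bases before the start of Batf3. The search for TGACATCA, TTACCTCA, TGACGT and TATAAA was added after the sequences had been seen. None of the 10 member windows held the AP-1 site TGACTCA, the full cAMP response element TGACGTCA, the shorter BACH and MAF site GCTGAGTCA or the antioxidant core TGACNNNGC, which were present in 5.2%, 1.79%, 0.454% and 12.4% of all windows. TGACGT is part of TGACGTCA. Of the 10 windows, those of Batf, Jun, Junb, Fos and Bach1 lay wholly in a peak, that of Fosb had 285 of its 300 bases in a peak, and the other four lay outside peaks. The gap to the nearest peak was 197 bp for Fosl2, 476 bp for Batf3, 519 bp for Jund and 3782 bp for Bach2, whose start in that table lies inside the gene, far from the 5′ end of its span.

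The libraries held 2723344 to 5111728 counts in Flcn KO and 3986331 to 4914976 counts in WT, and the 124 peaks took 0.267% to 0.296% of the counts of a library. Peaks of 8 Treg marker genes, Foxp3 among them, summed to 1829 to 2056 CPM (counts relative to the TMM-scaled size of the library, so that levels compare across libraries) in Flcn KO and 1750 to 1908 CPM in WT. Of 7 B cell markers, 4 had peaks and Cd79b and Ms4a1, among others, had none; the peaks summed to 70.4 to 90.6 CPM in Flcn KO and 54.9 to 86.2 CPM in WT. Of 6 myeloid markers, Lyz2, Csf1r, Cd68 and Adgre1 had no peak, and the sums were 8.80 to 12.3 CPM in Flcn KO and 10.1 to 18.4 CPM in WT. The peaks of 4 NK cell markers summed to 272 to 365 CPM in Flcn KO and 252 to 290 CPM in WT, and those of 3 erythroid markers to 46.1 to 54.8 CPM in Flcn KO and 30.6 to 38.4 CPM in WT. The erythroid sums did not overlap between the groups. Gata1 had 30.6 CPM in Flcn KO and 17.1 CPM in WT, Klf1 13.5 and 12.5, and Epor 5.39 and 5.35. Among NK cell markers, Klrb1c (261 in Flcn KO, 219 in WT) and Klre1 (31.6, 20.3) were higher in Flcn KO. Eomes (22.8, 26.0) and Ncr1 (3.32, 3.71) were lower. Beside 2.37% of all tested peaks, 1 of 4 erythroid, 2 of 14 NK cell, 4 of 112 Treg and 0 of 52 T cell marker peaks passed the test. The part of these markers in the results below was not tested. At Flcn itself both tested peaks gave log2 changes, Flcn KO over WT, of −0.28 (edgeR adjusted p = 0.678) and −0.57 (adjusted p = 0.462). A pair of further Flcn peaks, too weak to be tested, had 3.02 and 3.76 CPM in Flcn KO and 0.110 and 0.125 CPM in WT. The labels do not say which exons are removed, so these values do not check the genotype.

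No peak of the AP-1 and BACH genes passed the test. A level is an average over the sorted cells, so a site open in fewer cells and a site less open in each cell cannot be told apart. Of the 124 peaks, 111 had enough counts to be tested and 0 of these had an adjusted p below 0.05 for Flcn KO against WT (edgeR quasi-likelihood test, Benjamini-Hochberg adjustment over 47859 peaks). Over all tested peaks 2.37% were called, 644 higher (1.35%) and 489 lower (1.02%). DESeq2 and limma-voom also called 0 of the 111, where they called 2.34% and 1.71% of all peaks. An unadjusted p below 0.05 was reached by 8 of the 111 by edgeR (7.21%), against 12.9% of all tested peaks. By DESeq2 and limma-voom it was reached by 7 of the 111 each. The share over all tested peaks is given for edgeR alone, so these counts cannot be called low or high. Of the 8 peaks by edgeR, 5 were higher in Flcn KO, where the share over all peaks is 6.86%, and 3 were lower, where it is 6%. The lowest adjusted p among the 111 was 0.201. The libraries of the 2 groups did not overlap at 1 of the 111 peaks, 1.0 kb upstream of Junb, while this held for 7.59% of all tested peaks.

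**Figure D1:**
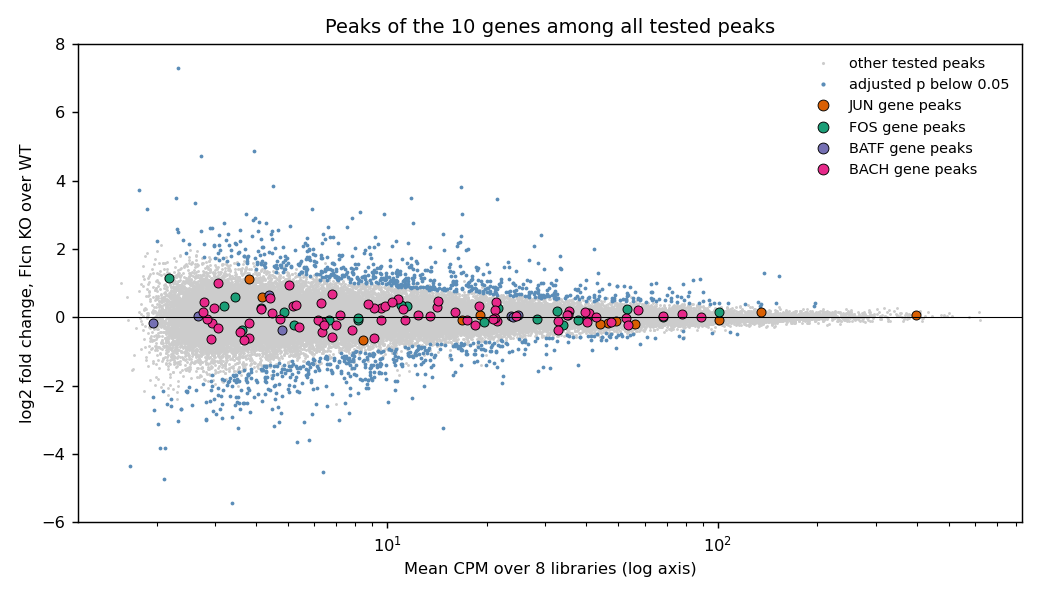
Log2 change of each tested peak, Flcn KO over WT (y), against its mean CPM over the 8 libraries on a log axis (x). Of the 47859 tested peaks, those called at an adjusted p below 0.05 are blue and the others grey; the larger circles, coloured by family, are the 111 peaks of the AP-1 and BACH genes, all uncalled and between −0.67 and 1.16.

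The 111 log2 changes ran from −0.67 to 1.16 with a median of 0.03, beside 0.00 over all tested peaks, and 60 lay above 0 and 51 below. The 95% interval of the change stayed within 2-fold in both directions for 76 of the 111 (68.5%), against 63.9% of all tested peaks. It stayed within 1.5-fold for 46 (41.4%), against 29.0% of all. How narrow an interval was moved with the level. Of the 58 peaks at 10 CPM or more, 57 had an interval within 2-fold and 45 within 1.5-fold, while of the 53 tested peaks under 10 CPM this held for 19 and 1. At the weaker peaks a change of 2-fold would therefore often lie inside the error. The medians were −0.09 over the 12 tested peaks of the JUN genes, 0.08 over the 22 of the FOS genes, 0.04 over the 7 of the BATF genes and 0.03 over the 70 of the BACH genes.

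Summed over all its peaks, weak ones included, no gene of the 10 passed the test. The same holds by DESeq2 and limma-voom, and 0 of the 10 had an unadjusted p below 0.05. By edgeR 252 of 13483 gene sums were called (1.87%), and 12.6% had an unadjusted p below 0.05. The libraries of the 2 groups overlapped for each of the 10 genes, while they did not for 986 of the 13483 gene sums (7.31%). The narrowest intervals of the log2 change were those of Bach1 (−0.05 to 0.26), Bach2 (−0.15 to 0.18), Jun (−0.09 to 0.25) and Fos (−0.09 to 0.25). The widest was that of Batf (−0.30 to 0.34), close to that of Batf3 (−0.21 to 0.42).

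**Figure D2:**
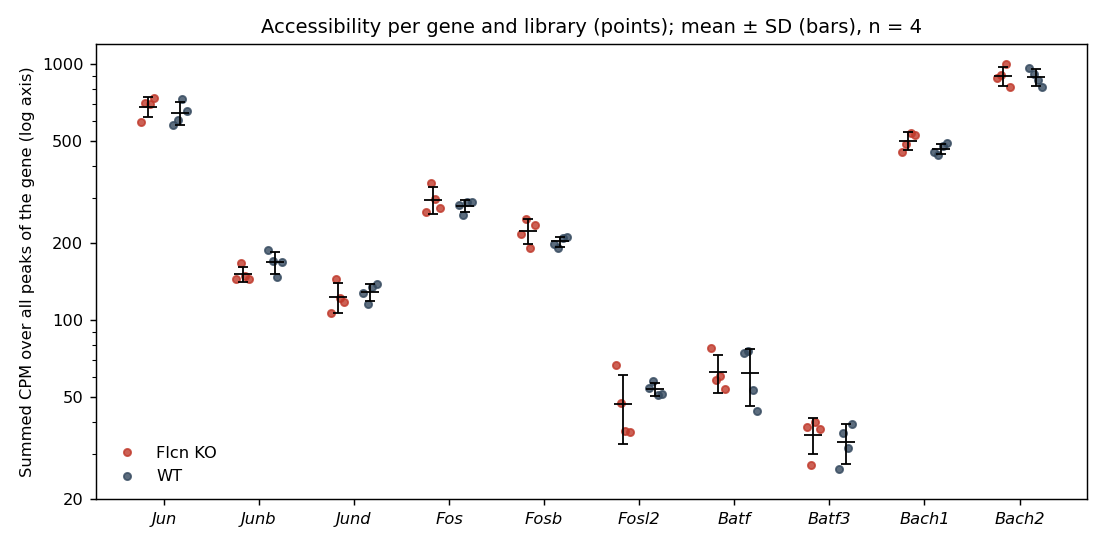
Accessibility summed over all peaks of each gene, in CPM on a log axis, by library. Red points are the 4 Flcn KO libraries and dark blue points the 4 WT libraries, with black bars at the mean ± SD; the groups overlap at every gene, and the sums cover different numbers and widths of peaks, so they compare groups and not genes.

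At the promoters, taken as the peak over or nearest each start, Jun had the highest level and Batf3 the lowest. The Batf3 and Fosl2 peaks lay beside the gene and not over its start. Per kilobase of peak, the Jun start had 472 ± 58.1 CPM in Flcn KO and 452 ± 55.9 CPM in WT (SD, n = 4 each), above 99.9% of all tested peaks in level. Bach1 followed with 131 ± 15.7 CPM per kb in Flcn KO and 131 ± 21.4 in WT. Junb had 111 ± 11.4 CPM per kb in Flcn KO and 120 ± 10.2 in WT, and Bach2, at the 5′ end of its span, 103 ± 9.46 in Flcn KO and 105 ± 7.06 in WT. The Jund peak, inside the gene, had 95.1 ± 11.5 CPM per kb in Flcn KO and 101 ± 6.57 in WT. Neighbours among Bach1, Junb, Bach2 and Jund differed by less than their SD, apart from Bach1 and Junb in Flcn KO and Junb and Bach2 in WT. Fosb had 61.8 ± 8.62 CPM per kb in Flcn KO and 54.1 ± 11.7 in WT, and Fos 52.3 ± 8.20 in Flcn KO and 55 ± 10.0 in WT. Batf had 43.3 ± 8.73 CPM per kb in Flcn KO and 41.7 ± 14.2 in WT, and Fosl2 30.7 ± 7.03 in Flcn KO and 36.3 ± 1.65 in WT. Neighbours among Fosb, Fos, Batf and Fosl2 differed by less than the larger SD in WT and by more in Flcn KO, and Fos lay above Fosb in WT alone. Batf3 was lowest, at 6.11 ± 4.66 CPM per kb in Flcn KO and 7.27 ± 3.56 in WT. None of the 10 promoter peaks passed the test, and their log2 changes lay between −0.23 and 0.19. Calls were rare at starts in general: of the 7678 tested peaks that overlap a gene's start, 15 were called higher and 20 lower by edgeR. An unadjusted p below 0.05 was reached by 0 of the 10 and by 7.2% of the 7678.

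Jun encodes c-JUN, a main partner of FOS proteins and an activator of its own promoter. The peak over its start (chr4:95052041-95052898), which contains both variant AP-1 sites printed above, had 337, 423, 405 and 455 CPM in Flcn KO replicates 1 to 4 and 352, 352, 453 and 396 CPM in WT. The lowest and the highest libraries both belonged to Flcn KO, and the log2 change was 0.06 (SE 0.09, edgeR adjusted p = 0.861). The gene's span, chr4:95049036-95052222 on the minus strand, holds little else: 2 of its 10 peaks overlap the gene. Upstream, 2 weak Jun peaks reached an unadjusted p below 0.05, in opposite directions. The peak 24.1 kb from the gene (chr4:95076314-95076653) had 2.12, 5.52, 4.89 and 8.62 CPM in Flcn KO and 2.04, 3.51, 2.51 and 1.21 CPM in WT, a log2 change of 1.12 (SE 0.45, adjusted p = 0.231). The groups overlapped through Flcn KO replicate 1. The peak 44.5 kb from the gene (chr4:95096731-95097279) had 7.31, 8.41, 6.85 and 3.00 CPM in Flcn KO and 7.76, 11.0, 11.5 and 11.6 CPM in WT, a log2 change of −0.67 (SE 0.29, adjusted p = 0.282), and here WT replicate 1 lay among the Flcn KO libraries. The sum over Jun was 682 ± 61.0 CPM in Flcn KO and 644 ± 65.3 CPM in WT (log2 change 0.08, SE 0.08, adjusted p = 0.762).

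Junb, whose product binds the same sites and is known for its role in effector Treg cells, had 3 peaks, at and on both sides of the gene. The peak upstream of it (chr8:84979755-84980298) had 38.8, 41.5, 41.6 and 41.2 CPM in Flcn KO and 49.2, 48.1, 45.1 and 45.3 CPM in WT. All 4 Flcn KO libraries lay below all 4 WT libraries, and the difference was small, with a log2 change of −0.20 (SE 0.13, edgeR adjusted p = 0.539). At the start of the gene (chr8:84978589-84979013) the levels were 47.3 ± 4.84 CPM in Flcn KO and 50.8 ± 4.33 CPM in WT (log2 change −0.11, adjusted p = 0.806). Just past the 3′ end (chr8:84976245-84976858) they were 52.5 ± 7.25 CPM in Flcn KO and 60.1 ± 10.4 CPM in WT (−0.20, adjusted p = 0.580). The 3 peaks summed to 145, 167, 148 and 145 CPM in Flcn KO and 187, 171, 147 and 169 CPM in WT. WT replicate 3 lay among the Flcn KO libraries and the other WT libraries above them all, and the log2 change of the sum was −0.15 (95% interval −0.33 to 0.02, adjusted p = 0.480).

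Jund, which encodes the JUN protein that resting cells express most steadily, had 2 peaks. The larger, inside the gene (chr8:70698307-70699333), had 97.7 ± 11.8 CPM in Flcn KO and 104 ± 6.75 CPM in WT, a log2 change of −0.09 (SE 0.10, edgeR adjusted p = 0.811). The smaller (chr8:70700564-70700869), which overlaps the 3′ end of the gene and reaches past it, gave −0.09 as well, on lower counts (SE 0.24).

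Fos, the immediate early gene whose product needs a JUN partner, had 13 peaks, 11 of them outside its span of chr12:85473890-85477274. The peak over its start (chr12:85473407-85474111) had 35.0, 45.5, 33.3 and 33.7 CPM in Flcn KO and 46.4, 31.2, 34.6 and 42.8 CPM in WT, so that the highest and the lowest libraries were both WT (log2 change −0.07, SE 0.15, edgeR adjusted p = 0.906). Its strongest peak lay 18.2 kb upstream (chr12:85454999-85455722), with 106 ± 20.1 CPM in Flcn KO and 96.0 ± 8.95 CPM in WT (log2 change 0.15, SE 0.11, adjusted p = 0.660). The largest change of the 111 peaks, 1.16 (SE 0.71, adjusted p = 0.539), was at a weak peak 45.8 kb upstream (chr12:85427759-85428060). That peak had 1.54, 2.63, 3.42 and 4.50 CPM in Flcn KO and 0, 0, 2.51 and 2.9 CPM in WT. The sum over Fos was 295 ± 35.6 CPM in Flcn KO and 279 ± 14.3 CPM in WT (log2 change 0.08, adjusted p = 0.772).

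Fosb, a close relative of Fos, had 8 tested peaks, and none reached an unadjusted p below 0.05. Its strongest (chr7:19308075-19308962, inside the gene) had 68.5 ± 11.5 CPM in Flcn KO and 67.8 ± 5.93 CPM in WT (log2 change 0.01, edgeR adjusted p = 0.985). At its start (chr7:19310011-19310572) the levels were 34.7 ± 4.84 CPM in Flcn KO and 30.4 ± 6.57 CPM in WT (0.19, adjusted p = 0.713). The lowest p of the gene belonged to a peak 9.5 kb upstream (chr7:19319607-19320357), with 54.2, 64.7, 49.4 and 60.7 CPM in Flcn KO and 45.7, 52.2, 54.2 and 42.6 CPM in WT. The log2 change there was 0.23 (SE 0.13, adjusted p = 0.459). Flcn KO replicate 3 lay within the WT range, and replicate 1 was level with the highest WT library.

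Fosl2 encodes FRA-2, which lacks the strong activation domain of FOS. It had 4 peaks, all outside its span of chr5:32136472-32157840. The peak next to its 5′ end (chr5:32135015-32136025) had 40.8, 31.5, 24.7 and 27.0 CPM in Flcn KO and 35.9, 36.2, 35.6 and 39.2 CPM in WT. Flcn KO replicates 2 to 4 lay below every WT library and replicate 1 lay above them all, giving a log2 change of −0.23 (SE 0.16, edgeR adjusted p = 0.586).

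Batf encodes a small factor that lacks an activation domain, pairs with JUN proteins and is needed for Treg cells of tissues. The peak over its start (chr12:85686299-85686881) had 31.9, 21.6, 26.4 and 21.0 CPM in Flcn KO and 31.4, 31.2, 19.6 and 15 CPM in WT. The WT libraries spread more widely than the groups differed (log2 change 0.06, SE 0.20, edgeR adjusted p = 0.945). A weak peak inside the gene (chr12:85687899-85688171) gave −0.37 (SE 0.36, adjusted p = 0.749), the lowest p of the gene. Batf3, known for its role in dendritic cells and also expressed in T cells, had its strongest peak 16.9 kb past the gene (chr1:191125885-191126310), with 24.0 ± 4.26 CPM in Flcn KO and 23.3 ± 4.28 CPM in WT (log2 change 0.04, SE 0.18, adjusted p = 0.964). The peak nearest to its start (chr1:191097397-191097688) had 1.54, 3.15, 2.45 and 0 CPM in Flcn KO and 0.817, 1.76, 3.01 and 2.9 CPM in WT, too little to compare closely (log2 change −0.17, SE 0.61, adjusted p = 0.950). The peak with the lowest p of Batf3 (chr1:191111143-191111749) gave 0.65 (SE 0.39, adjusted p = 0.512).

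**Figure D3:**
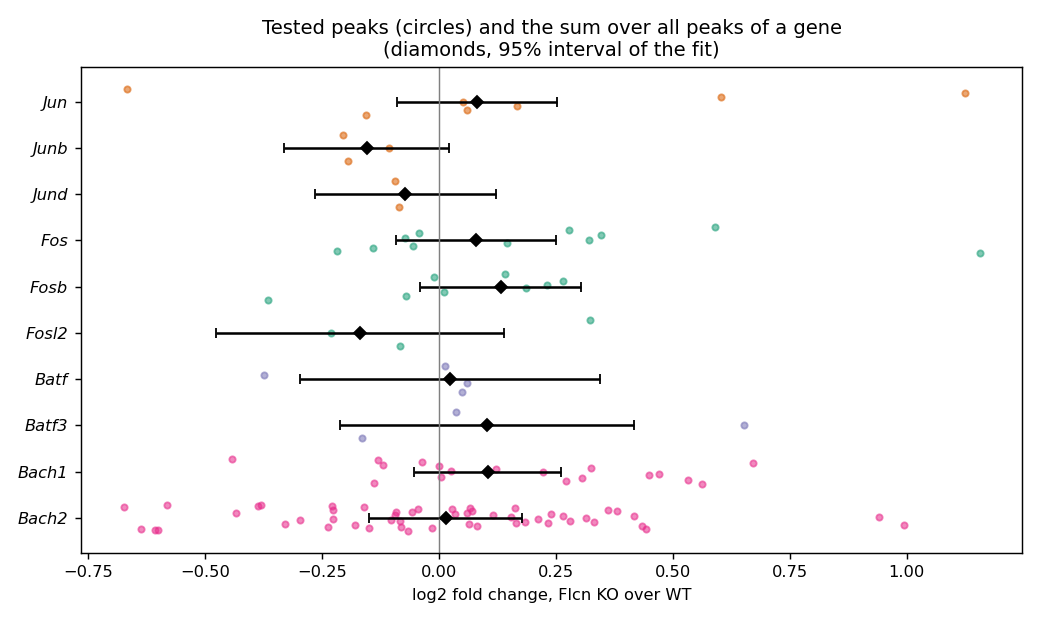
Log2 change, Flcn KO over WT, of each tested peak (circles, coloured by family) and of the sum over all peaks of a gene (black diamonds with 95% intervals), with a row for each gene. The interval of every sum takes in 0, and the circles spread most at Bach2, Jun and Fos.

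Bach1 encodes a repressor that haem releases from DNA and that competes with NRF2 at antioxidant genes. All of its 18 peaks were tested, 12 of them above 0. The peak over its start (chr16:87698637-87699313) had 102, 90.4, 83.2 and 77.9 CPM in Flcn KO and 101, 68.5, 87.8 and 97.3 CPM in WT, with the 2 groups interleaved (log2 change 0.00, 95% interval −0.23 to 0.24, edgeR adjusted p = 0.994). Both Bach1 peaks with an unadjusted p below 0.05 lay inside the gene. That at chr16:87699940-87700306 had 25, 27.3, 19.8 and 26.2 CPM in Flcn KO and 15.1, 14.0, 16.1 and 26.9 CPM in WT. WT replicate 4 alone lay among the Flcn KO libraries, and the log2 change was 0.45 (SE 0.20, adjusted p = 0.310). That at chr16:87705661-87706253 had 10.6, 15.8, 18.6 and 21.7 CPM in Flcn KO and 13.1, 10.1, 11.5 and 12.6 CPM in WT, where Flcn KO replicate 1 lay among the WT libraries (0.47, SE 0.23, adjusted p = 0.380). The 8 peaks that overlap the gene had a median of 0.17, with 7 above 0, and the 10 outside it a median of 0.12, with 5 above 0. The sum over Bach1 was 502 ± 39.0 CPM in Flcn KO and 467 ± 22.8 CPM in WT (log2 change 0.10, SE 0.08, adjusted p = 0.633).

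Bach2 is the longest of the 10 genes, with a span of chr4:32238413-32586109 on the plus strand, and 49 of its 57 peaks overlap it. The 52 tested peaks divided evenly, with 26 above 0 and 26 below. At the 5′ end of the span (chr4:32238402-32238909) the libraries had 48.6, 55.2, 58.0 and 48.3 CPM in Flcn KO and 50.2, 54.4, 57.7 and 50.3 CPM in WT. The groups were interleaved, with a log2 change of −0.01 (95% interval −0.26 to 0.23, edgeR adjusted p = 0.978). The strongest Bach2 peak, centred 19.7 kb into the gene (chr4:32257713-32258576), had 80.4, 88.0, 80.7 and 70.4 CPM in Flcn KO and 96.4, 79.0, 62.7 and 64.1 CPM in WT (0.08, SE 0.12, adjusted p = 0.859). The sum over all 57 peaks was 880, 906, 1000.2 and 816 CPM in Flcn KO and 971, 920, 864 and 812 CPM in WT, again interleaved (0.01, 95% interval −0.15 to 0.18, adjusted p = 0.964).

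Along the Bach2 locus the 44 tested peaks that overlap the gene had a median of 0.06, with 25 above 0. Of the 5 peaks upstream, 4 lay below 0 (median −0.60), and all 3 downstream lay below 0 (−0.23, −0.58 and −0.38). The peak with the lowest p of all 111 was centred 127 kb into the gene (chr4:32365275-32365533), with 3.85, 6.31, 10.0 and 6.37 CPM in Flcn KO and 2.86, 3.95, 3.51 and 3.39 CPM in WT. Flcn KO replicate 1 lay within the WT range, and the log2 change was 0.94 (SE 0.36, edgeR adjusted p = 0.201). A second weak peak inside the gene (chr4:32268137-32268342) had 4.13 ± 1.70 CPM in Flcn KO and 2.01 ± 0.889 CPM in WT (0.99, SE 0.47, adjusted p = 0.364). Upstream, 20.5 kb from the gene (chr4:32217553-32217915), the libraries had 9.23, 8.41, 4.40 and 6.74 CPM in Flcn KO and 11.4, 14.0, 9.53 and 9.20 CPM in WT (−0.61, SE 0.27, adjusted p = 0.318), overlapping at a single library of each group.

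The stronger of the downstream peaks, 2.1 kb past the gene (chr4:32588197-32588694), had 40.0, 28.4, 22.5 and 22.5 CPM in Flcn KO and 34.7, 42.6, 38.6 and 33.9 CPM in WT. Flcn KO replicate 1 was high while the others lay below every WT library, and the log2 change was −0.38 (SE 0.17, edgeR adjusted p = 0.301). Without Flcn KO replicate 1 it was −0.61 (SE 0.17, adjusted p = 0.0267), the single case in which a peak of these genes was called in any alternative run. That library is the deepest and without it the calls over all peaks came to 1807, against 1133 with it. On the first principal component, the main axis along which the libraries differ over all tested peaks, it lay at −1.66. The other Flcn KO libraries lay at −35.8, −46.6 and −75.8, and the WT libraries at 22.6 to 55.8. What sets it apart was not tested. A weaker peak beside that at chr4:32588197-32588694 (chr4:32587565-32587858) gave −0.58 (SE 0.32, adjusted p = 0.464).

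**Figure D4:**
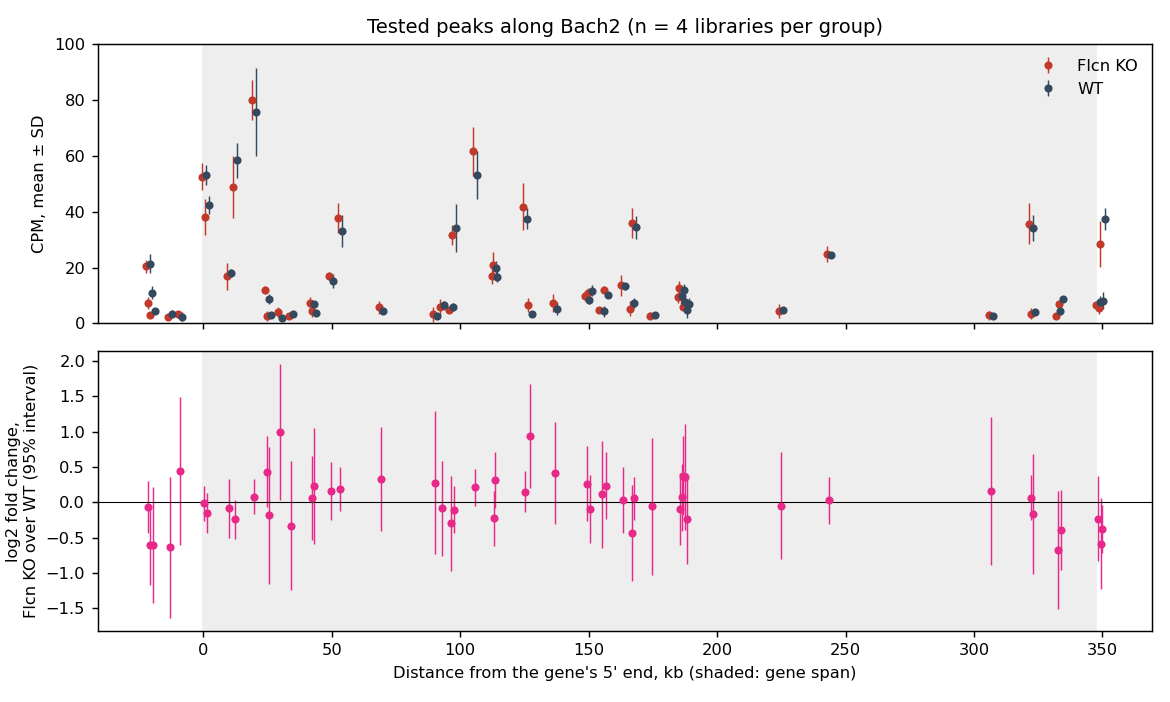
The Bach2 locus by distance from the 5′ end of the gene, in kb, with the gene's span shaded. The upper panel shows the mean CPM ± SD of each tested peak in Flcn KO (red) and WT (dark blue), drawn slightly apart, and the lower panel the log2 change, Flcn KO over WT, with 95% intervals; the 3 peaks past the gene all lie below 0.

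**Figure D5:**
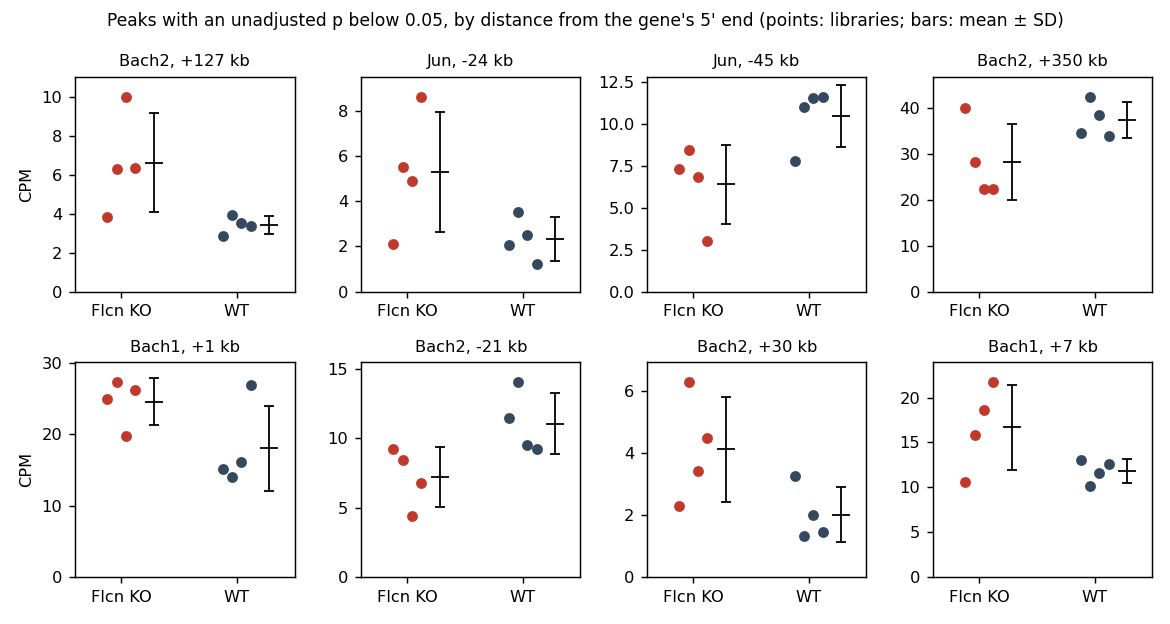
CPM by library at the 8 peaks with an unadjusted p below 0.05 (red Flcn KO, dark blue WT, black bars at the mean ± SD), each headed by its gene and the distance of the peak's centre from the gene's 5′ end. In each panel at least 1 library of a group lies within the range of the other.

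Among the 13 peaks with too few counts to be tested, the groups did not overlap at 1, against 8.85% of the 9340 untested peaks of the table. This Bach2 peak (chr4:32302657-32302887), inside the gene, held 0, 4, 2 and 2 counts in Flcn KO and 9, 10, 12 and 12 counts in WT. Fitted without the filter on low counts it gave a log2 change of −2.16 (SE 0.77, edgeR adjusted p = 0.155). It was singled out after its values had been seen, and the groups overlapped at the other untested peaks.

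The distance rule had few peaks near its limit. The outermost peaks inside it lay 47.5 kb from Jun, untested at 1.59 CPM in Flcn KO and 1.04 CPM in WT, 45.8 kb from Fos, described above, and 45.8 kb from Bach1, at 5.30 ± 1.04 CPM in Flcn KO and 3.54 ± 0.978 CPM in WT. The nearest outside it lay 53.8, 54.6 and 55.1 kb from Jun, and the strongest of these had 32.7 ± 3.45 CPM in Flcn KO and 33.5 ± 1.42 CPM in WT. In all, 31 peaks had 1 of the 10 genes as the nearest beyond 50 kb. Distance alone does not tell which gene a peak acts on. Fos and Batf lie on either side of Jdp2, which encodes a JUN-binding repressor. Those peaks between Fos and Batf that lay nearest to Jdp2 were assigned to Jdp2, and none of its 10 tested peaks was called.

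The genes that work with these factors were examined by 5 lists, beside the 2.37% of all tested peaks called by edgeR and the 6.86% higher and 6% lower at an unadjusted p below 0.05 (12.9% in all). Of 45 tested peaks of other AP-1-related and small MAF genes, 1 rose, 0 fell and 44 did not pass, with a median of 0.01. DESeq2 and limma-voom called the same numbers, and at an unadjusted p below 0.05 there were 3 higher and 4 lower (15.6% of the 45). The peak that rose lay inside Nfe2l2 (chr2:75689030-75689344), which encodes the NRF2 factor that BACH1 opposes, and held 31, 22, 24 and 24 counts in Flcn KO and 10, 10, 8 and 4 counts in WT. The level was 6.65 ± 1.56 CPM in Flcn KO and 1.80 ± 0.562 CPM in WT, a log2 change of 1.84 (SE 0.40, edgeR adjusted p = 0.00604), and it was called in every alternative in which it was fitted.

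Of 77 tested peaks of MAP kinase genes, 1 rose, 2 fell and 74 did not pass (median −0.07). DESeq2 called the same numbers, while limma-voom called 0 higher and 1 lower. At an unadjusted p below 0.05 by edgeR there were 2 higher and 7 lower (11.7% of the 77, against 12.9% of all tested peaks). The peak inside Map3k1 (chr13:111772092-111772412), a kinase upstream of JNK, fell to 1.75 ± 0.315 CPM in Flcn KO, against 10.4 ± 5.11 CPM in WT (log2 change −2.55, SE 0.38, edgeR adjusted p = 3.63e-05; up to 0.00911 over the alternatives). Map3k5 encodes the stress-activated kinase ASK1, and a peak inside it (chr10:20077164-20077568) held 2, 8, 0 and 6 counts in Flcn KO and 16, 57, 12 and 24 counts in WT (−2.50, SE 0.61, adjusted p = 0.0203). The Map3k5 peak was no longer called by limma-voom, nor when Flcn KO replicate 3, WT replicate 2 or WT replicate 4 was left out (adjusted p up to 0.221).

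Of 58 tested peaks of genes known as BACH2 targets in lymphocytes, 1 rose, 1 fell and 56 did not pass (median 0.16), and at an unadjusted p below 0.05 there were 12 higher and 5 lower (29.3% of the 58, against 12.9% of all tested peaks). These 58 peaks belong to 9 genes, and the lists were chosen with earlier results of these data known. The share is therefore a description and not a test of these targets. The peak 4.8 kb from Il1rl1 (chr1:40399558-40400077), which encodes the interleukin-33 receptor ST2, held 88, 52, 80 and 30 counts in Flcn KO and 34, 32, 30 and 18 counts in WT (log2 change 1.26, SE 0.26, edgeR adjusted p = 0.00277). The peak 15.7 kb from Nfil3 (chr13:52998564-52999028), a repressor gene, had 5.45 ± 1.62 CPM in Flcn KO and 11.0 ± 0.806 CPM in WT (−1.01, SE 0.28, adjusted p = 0.0422). The Nfil3 call ended by limma-voom and when any of the libraries other than Flcn KO replicates 1 and 2 was left out (adjusted p up to 0.170). Of 32 tested peaks of genes known as BACH1 and NRF2 targets, such as the haem oxygenase gene Hmox1, 0 were called by edgeR, DESeq2 or limma-voom, and 1 (3.12%) had an unadjusted p below 0.05 by edgeR (median −0.02). Irf4 and Irf8, which encode the partners of BATF and JUN, had 18 tested peaks (median 0.12). Of these, 0 were called by edgeR, DESeq2 or limma-voom. Before adjustment, edgeR put 4 of the 18 under 0.05 (22.2%, against 12.9% of all tested peaks), all higher in Flcn KO. Groups without overlap were seen at 1 of the 18 (5.56%, against 7.59% of all tested peaks). With 2 genes behind them, these shares describe the peaks and are no test of the partners. Irf4 is also on the list of BACH2 targets, so these 2 lists draw in part on the same peaks.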

How the data were processed

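The authors deposited raw counts per peak and library for 57199 shared peaks in mm10. Per the submitters' processing notes, the tools were MACS2 2.1.1, BWA 0.7.16, bedtools 2.25.0, Trimmomatic 0.36, SAMtools 1.9 and Picard 2.9.4. The sources used here do not give their order, whether duplicates were removed, whether reads were shifted for the transposase, or how the shared peaks were called. Samples were grouped by title. Between 88.7% and 92.5% of the nonzero counts of a library were even, as when both ends of a read pair are counted, so counts are not independent fragments and errors rest on the libraries.

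Counts were filtered with filterByExpr (minimum count of 10), scaled by TMM and tested with edgeR's quasi-likelihood test (edgeR 4.0.16, robust, genotype as the only term; R 4.3.3), checked on simulated data. The adjusted p threshold was 0.05. CPM values use the TMM-scaled library size, and intervals are 95%. Counts summed per gene were fitted in the same way. Alternatives were 3 other scalings, 2 other filters, DESeq2 1.42.0, limma-voom (limma 3.58.1), halved counts, a replicate term, shorter distances and leaving out each library. Spans and promoter windows came from RefSeq tables of GRCm38.p6; the span table does not give exons.

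The members and lists were chosen with earlier results of these data known. For each gene the peaks named are the strongest, that with the lowest p and that over or nearest its start (for Bach2, the 5′ end of its span), with the 5 lowest p for Bach2 and called peaks of the lists. The other peaks with an unadjusted p below 0.05, the Junb peak whose libraries do not overlap and the untested Bach2 peak are named for their values. A gene that this rule names is not reported here.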

Additional observations from a re-analysis of the deposited data

Results flagged for a closer look

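Among 90 groups of 4 libraries looked at, 9 held 1 library far from the others, where chance gives about 1 in 20. At the Junb peak whose groups do not overlap (84979755), Flcn KO replicate 1 had 38.8 CPM and the other Flcn KO libraries 41.2 to 41.6 CPM. Summed over Junb, Flcn KO replicate 2 had 167 CPM beside 145 to 148 CPM. At the start of Fos (85473407), Flcn KO replicate 2 had 45.5 CPM beside 33.3 to 35.0 CPM. At the Jun peak at 95096731, WT replicate 1 had 7.76 CPM beside 11.0 to 11.6 CPM. At the Bach1 peak at 87699940, WT replicate 4 had 26.9 CPM beside 14.0 to 16.1 CPM. At Fosl2 (32135015), WT replicate 4 had 39.2 CPM beside 35.6 to 36.2 CPM. At Batf3 (191111143), WT replicate 3 had 5.02 CPM beside 2.86 to 3.07 CPM. At the called Nfe2l2 peak (75689030), Flcn KO replicate 4 had 8.99 CPM beside 5.78 to 5.96 CPM, and WT replicate 4 had 0.968 CPM beside 2.01 to 2.19 CPM.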

How the results depend on the processing

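Over all alternatives run, 731 of 766 values kept their direction and 35 reversed, all of them uncalled, and the single new call was the Bach2 peak at 32588197 without Flcn KO replicate 1. Leaving out 1 library gave 0 to 1 called peaks of the AP-1 and BACH genes and 665 (without WT replicate 2) to 1807 (without Flcn KO replicate 1) over all peaks; the cause was not tested. With library size alone the Bach2 sum was −0.00413 and the Bach1 peak at 87698637 was −0.000128 (log2). Loess offsets gave the Bach2 sum −0.074, DESeq2 the Bach1 peak −0.000346, limma-voom the Fosb peak at 19308075 −0.0103, and assignment within 1 kb the Batf3 sum −0.22. With 1 library left out, values that reversed ranged, in log2, over −0.11 to 0.14 (Batf sum), −0.11 to 0.21 (Batf 85686299), −0.53 to 0.17 (Batf3 191097397), −0.041 to 0.16 (Batf3 191125885), −0.00246 to 0.22 (Batf3 sum), −0.00339 to 0.13 (Fos sum), −0.18 to 0.0277 (Fos 85473407), −0.0861 to 0.11 (Fosb 19308075), −0.11 to 0.0732 (Bach1 87698637), −0.0659 to 0.0251 (Bach2 32238402) and −0.0382 to 0.0625 (Bach2 sum). A term for the replicate number (a replicate block) gave 0 called peaks of these genes and 1375 over all peaks. The replicate numbers have no stated meaning, and the main fit does not pair the samples by them. The deviations of same-numbered libraries correlated by −0.06 to 0.09, and those of other pairs across the groups by −0.16 to 0.18. Of 8 libraries, 2 correlated best with their own number. Such weak correlations cannot exclude a pairing. Without WT replicate 4 the lowest adjusted p of these genes was 0.0723 (edgeR). Intervals were wide at the weak peaks, and the part of sequencing depth in this was not tested.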
